A study of Mus musculus with 6 samples.

Results

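The genes described here encode 10 integrin subunits of mouse fibroblasts, 7 alpha subunits (Itga1, Itga3, Itga4, Itga5, Itga6, Itga7 and Itgav) and 3 beta subunits (Itgb1, Itgb3 and Itgb5). They were taken by gene symbol from count tables that list 53762 symbols, and all 10 were present and passed the filter on low counts. RNA was sequenced from immortalized fibroblasts of mouse embryos (MEFs), the cells that make and hold connective tissue, in 3 libraries of PME-1 knockout cells (KO) and 3 of wild-type cells (WT). All cells were grown in high-glucose DMEM with 10% serum and collected 24 hours after seeding. PME-1, the product of Ppme1, is a methylesterase: it takes the methyl group off the C subunit of protein phosphatase 2A. The sources used here do not say how the knockout was made, how the cells were immortalized, or whether the replicates were separate cultures or clones, so the p-values reflect the variation among these libraries alone, which may be technical. The genotype fields of KO 2 and KO 3 name PME-2 and PME-3, while the titles of all 3 name PME-1.

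Integrins are receptors that span the cell membrane and join the matrix outside to the actin cytoskeleton inside. Each is a pair of 1 alpha and 1 beta chain, and the alpha chain largely sets the ligand. Fibroblasts attach and spread through them, mainly to fibronectin, collagens, laminins and vitronectin. Most alpha chains pair with the beta-1 chain, while the alpha-V chain also pairs with beta-3 and beta-5.

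Ppme1, the targeted gene, was at 18.2, 14.9 and 18.9 CPM (read counts scaled to a common library size) in KO 1 to 3, against 78.5, 80.7 and 86.6 CPM in WT 1 to 3. Library totals were 34450993 to 43000426 counts in KO and 38155189 to 44116310 in WT. In each group library 1 stood apart: chi-square over its degrees of freedom was 118 to 136.83 between KO 1 and the other KO libraries and 13.14 between KO 2 and KO 3, and it was 115.16 to 128 between WT 1 and the other WT libraries and 12.73 between WT 2 and WT 3. The summed level of 10 fibroblast markers, among them Col1a1, Vim and Fn1, was 12800 to 14900 CPM in KO and 15700 to 21600 CPM in WT, and none was at 0 in every library, though Lum had 0 counts in WT 1. They did not all go one way: Col1a1 averaged 2598 CPM in KO and 5123 CPM in WT, and Pdgfrb 87.6 and 211 CPM. Dcn averaged 30.3 CPM in KO and 6.56 CPM in WT, and Thy1 6.52 and 2.31 CPM. By library Dcn was at 63.25, 12.5 and 15.15 CPM in KO, against 1.05, 10.05 and 8.58 CPM in WT. The sum of 6 epithelial markers was 59.7 to 115 CPM in KO and 2.33 to 2.66 CPM in WT. Most of the KO sum was Krt18, at 57.5 to 108 CPM in KO and 1.04 to 1.78 CPM in WT. Krt8 averaged 3.44 CPM in KO and 0.229 CPM in WT, Epcam 0.675 and 0.641 CPM, and Cdh1 0.104 and 0.267 CPM. Krt5 and Krt14 were at 0 in all 6 libraries. The sum of 4 smooth muscle markers was 121 to 310 CPM in KO and 345 to 1080 CPM in WT, lowest in KO 1 and highest in WT 1. None of them was at 0 in every library. Acta2 averaged 57.6 CPM in KO and 411 CPM in WT, Tagln 176 and 178 CPM, Cnn1 6.73 and 3.65 CPM, and Myh11 0.197 and 0.130 CPM. The part of these markers in the integrin values was not tested. Xist was at 0.118 to 0.310 CPM in KO and 370 to 490 CPM in WT, and the Y-linked gene Ddx3y was at 58.4 to 71.8 CPM in KO and had 0 counts in WT, so genotype and the sex of the cells cannot be told apart in any comparison here.

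No integrin subunit of the list passed the test between KO and WT with all 6 libraries. In edgeR's quasi-likelihood test 0 of 10 had an adjusted p under 0.05, where 7.4% of the 15223 genes tested did. At an unadjusted p under 0.05 there were 2, Itga4 and Itga7, where 22.2% of all genes were, and DESeq2 called the same 2, where it called 11.0% of all genes it adjusted. The log2 fold change (KO over WT) was below 0 for 7 subunits and above 0 for 3, with a median of -0.29, against 0.01 for all genes tested. Of the 15223 genes tested, 7442 were below 0 and 7767 above 0. In 5 of 10 subunits the KO and WT libraries did not overlap, where 30.0% of all genes did not. The power of the edgeR test was limited. When known differences were put into simulated counts, it detected 29 out of 100 at a size of 2-fold. At a size of 4-fold it detected 68 out of 100. The result of 0 of 10 therefore does not show that the subunits were unchanged.

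Levels can be compared between genes only per length, so CPM was divided by the exon length of each gene. Itgb1, the common beta chain, had the highest level per length in every library, at 221 ± 17.7 CPM per kb in KO and 268 ± 27.2 CPM per kb in WT (mean ± SD, n = 3 each). Itgb5, which pairs with the alpha-V chain in a vitronectin receptor, came next at 63.8 ± 10.8 CPM per kb in KO and 86.4 ± 22.7 CPM per kb in WT. Itga5, the alpha chain of the classical fibronectin receptor, followed with 38.8 ± 4.16 CPM per kb in KO and 48.1 ± 8.09 CPM per kb in WT. Itga3 (38.1 CPM per kb in KO, 26.8 in WT) and Itgav (26.3 CPM per kb in KO, 32.7 in WT) changed places between the groups, but neighbours among Itga5, Itga3 and Itgav overlapped in both. Below them came Itga6, Itga7 and Itgb3, from 12.4 down to 1.53 CPM per kb in WT, where Itga6 still overlapped Itga3. Itga1 and Itga4 were at the low end, at 0.130 and 0.0784 CPM per kb in KO and 0.151 and 0.00987 CPM per kb in WT. Itga7 and Itgb3 overlapped in KO but not in WT, and Itga1 and Itga4 likewise.

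**Figure D1:**
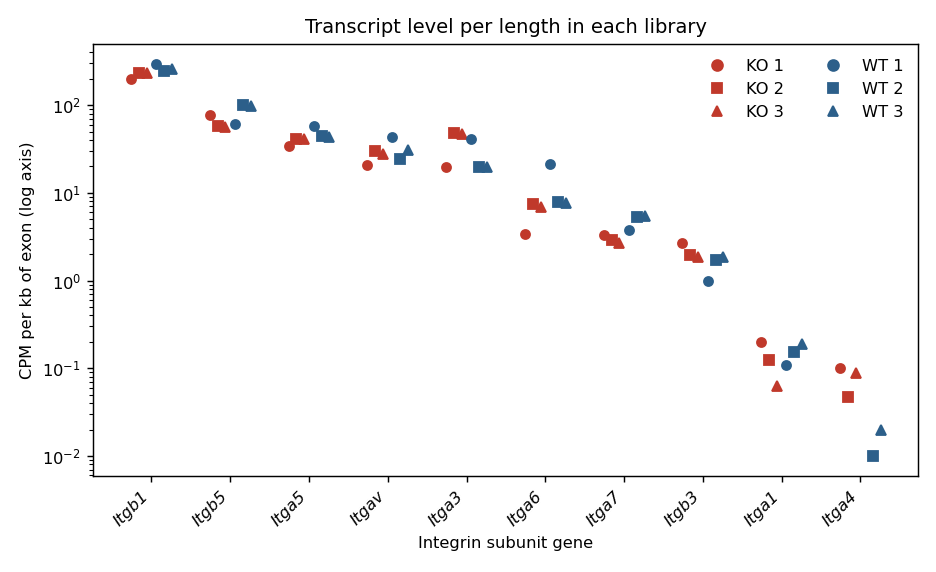
Level of each integrin subunit in CPM per kb of exon (log axis), with KO libraries in red left of WT libraries in blue and a marker shape for each library number. Itgb1 lies on top in every library at 200.4 to 297 CPM per kb, Itga1 and Itga4 lie lowest, and Itga4 in WT 1, with 0 counts, cannot be drawn.

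As shares of their class, 3 alpha chains carried most of the alpha transcripts. Of the summed level per length of 18 alpha subunit genes, Itga5 held 31.4% to 40.2% in KO and 34.0% to 41.3% in WT. Itgav held 22.0% to 24.7% in KO and 23.1% to 27.3% in WT. Itga3 varied more, with 23.3%, 36.4% and 37.0% in KO 1 to 3 and 24.4%, 18.4% and 17.7% in WT 1 to 3. Among 8 beta subunit genes Itgb1 held 69.9% to 77.9% in KO and 69.1% to 81.0% in WT, and Itgb5 held 19.2% to 26.6% in KO and 16.4% to 28.5% in WT. The summed beta level was 287, 298 and 297 CPM per kb in KO 1 to 3, against 367, 353 and 369 in WT 1 to 3, without overlap. The summed alpha level was 84.4, 131 and 128 CPM per kb in KO, against 169, 107 and 111 in WT, with overlap.

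Among the chains that bind laminin, a protein of basement membranes, Itga3 and Itga6 varied more between libraries of one genotype than Itga7. Itga3, whose product pairs with beta-1, was at 112, 272 and 269 CPM in KO 1 to 3, against 235, 112 and 113 CPM in WT 1 to 3. WT 1 lay near KO 2 and KO 3, and KO 1 lay beside WT 2 and WT 3, so the groups overlapped (log2 fold change 0.51, SE 0.43, edgeR adjusted p = 0.551). Without KO 1 and WT 1 the Itga3 log2 fold change was 1.27 (SE 0.06, edgeR adjusted p = 1.1e-08). That refit was chosen after seeing the data and called 48.0% of all genes tested. Itga6, whose product pairs with beta-1 or, in epithelia, with beta-4, was at 30.8, 67.1 and 62.6 CPM in KO, against 195, 70.4 and 69.7 CPM in WT. All KO libraries lay below all WT libraries, but KO 2 and KO 3 lay close to WT 2 and WT 3. The Itga6 log2 fold change was -1.06 (SE 0.48, edgeR adjusted p = 0.262). Leaving out WT 1 made it -0.39, and leaving out KO 1 as well made it -0.11. Itga7, the laminin receptor chain best known from muscle, was at 26.9, 23.6 and 21.4 CPM in KO, against 30.7, 43.2 and 43.5 CPM in WT, with no overlap. The log2 fold change of Itga7 was -0.71 (SE 0.18, edgeR adjusted p = 0.0627). Itga7 passed the threshold when WT 1 was left out (-0.85, edgeR adjusted p = 0.026), a setting in which 7.66% of all genes did, and DESeq2 gave an adjusted p of 0.0137. Of the 6 skeletal muscle markers Myod1, Myog and Ckm were at 0 in every library, and the summed level was 0.441 to 1.19 CPM in KO and 0.555 to 1.04 CPM in WT.

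The alpha chains of receptors for the RGD motif of fibronectin and vitronectin were closer between groups. Itga5 was at 168, 203 and 203 CPM in KO, against 283, 217 and 212 CPM in WT. All KO values of Itga5 lay below all WT values, with a log2 fold change of -0.31 (SE 0.16, edgeR adjusted p = 0.298). Itgav was at 224, 322 and 301 CPM in KO, against 462, 264 and 327 CPM in WT. The groups overlapped for Itgav, and its log2 fold change was -0.31 (SE 0.24, edgeR adjusted p = 0.503) with all libraries and 0.08 (SE 0.10, edgeR adjusted p = 0.583) without KO 1 and WT 1.

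Itga1, the alpha chain of a collagen receptor, and Itga4, whose product with beta-1 binds Vcam1 and a fibronectin splice segment, were at low levels. Itga1 was at 3.75, 2.32 and 1.18 CPM in KO, against 2.03, 2.87 and 3.53 CPM in WT, with overlap (log2 fold change -0.22, SE 0.47, edgeR adjusted p = 0.841). Without KO 3 it was 0.13. Itga1 shares 685 exon bases on the same strand with the gene Gm49395, which was at 3.80 CPM on average, so its counts are uncertain. Itga4 had 54, 28 and 42 counts in KO, against 0, 6 and 12 counts in WT. The 0 counts in WT 1 allow a level of up to 0.0832 CPM (3 counts, counting error only), and all KO libraries, at 0.657 to 1.40 CPM, lay above the highest WT library at 0.275 CPM. The Itga4 log2 fold change was 2.93 (SE 0.97, edgeR adjusted p = 0.134) and lay between 2.40 and 3.86 when 1 library was left out, the highest without WT 3. DESeq2 gave Itga4 an adjusted p of 0.0212. Itga4 shares 1124 exon bases with Cerkl on the opposite strand, which was at 0.0450 CPM on average.

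The beta chains followed the same order in both groups. Itgb1 was at 818, 941 and 944 CPM in KO, against 1213, 995 and 1066 CPM in WT. All KO values of Itgb1 lay below all WT values, with a log2 fold change of -0.28 (SE 0.13, edgeR adjusted p = 0.27). Itgb3, which pairs with the alpha-V chain in a vitronectin and fibronectin receptor, was at 15.8, 11.5 and 10.9 CPM in KO, against 5.88, 10.1 and 11.0 CPM in WT. KO 3 lay just below WT 3, and the log2 fold change was 0.50 (SE 0.29, edgeR adjusted p = 0.37). Itgb5 was at 271, 207 and 202 CPM in KO, against 214, 358 and 350 CPM in WT, so that WT 1 lay among the KO libraries. The log2 fold change of Itgb5 was -0.44 (SE 0.23, edgeR adjusted p = 0.321) with all libraries and -0.79 (SE 0.06, edgeR adjusted p = 3.4e-07) without KO 1 and WT 1. The latter refit was chosen after seeing the data and called 48.0% of all genes tested.

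**Figure D2:**
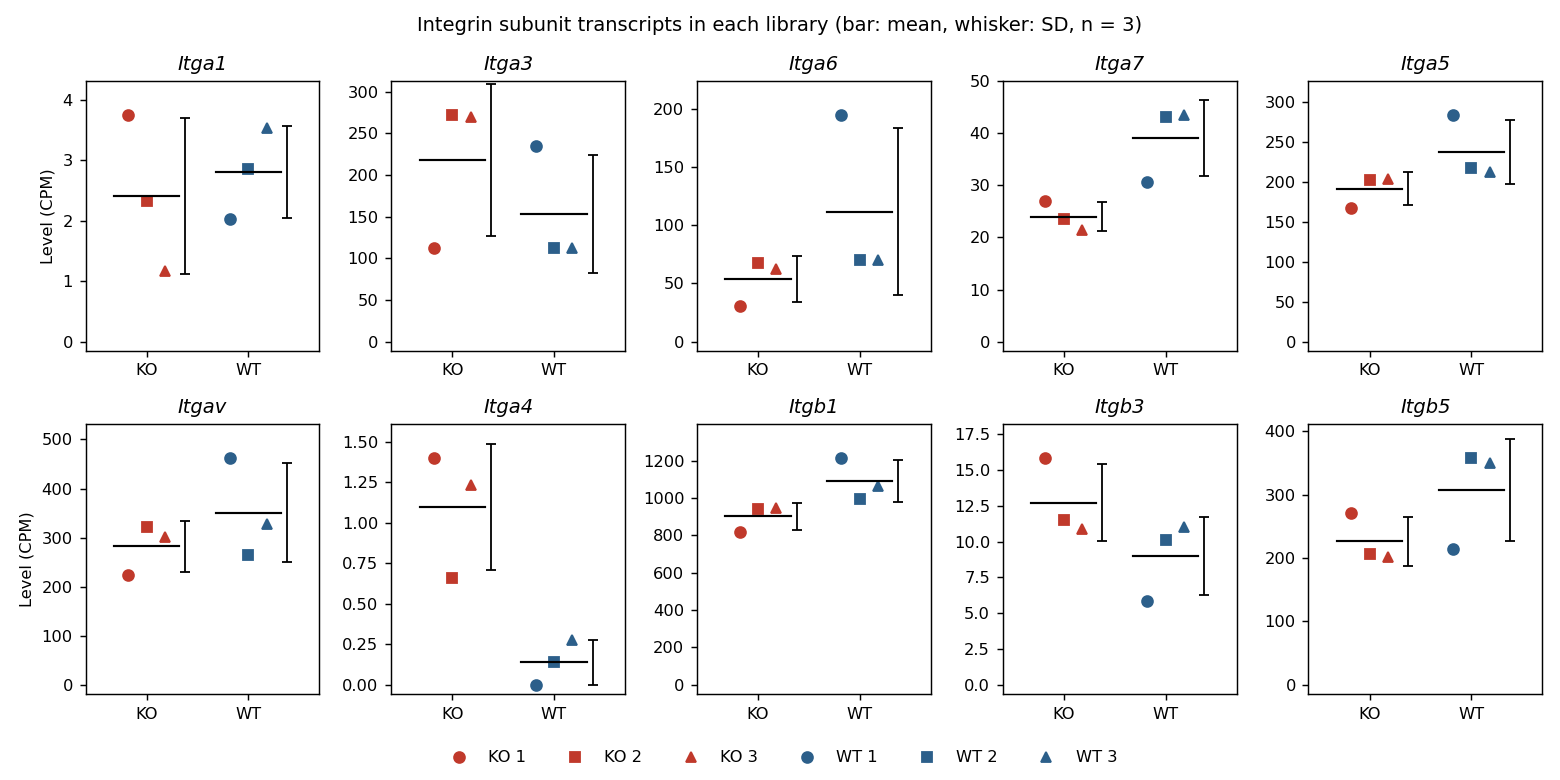
Level of each integrin subunit in CPM in each library, KO in red left of WT in blue, with the mean as a bar and the SD as a whisker (n = 3 each). KO 1 and WT 1 (circles) lie at an end of their group in all 10 panels, for instance for Itga6 at 30.8 CPM in KO 1 and 195 CPM in WT 1.

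The libraries numbered 1 lay at opposite ends of their groups for every subunit. For Itga3, Itga5, Itga6, Itgav and Itgb1, KO 1 was the lowest KO library and WT 1 the highest WT library. For Itga1, Itga4, Itga7, Itgb3 and Itgb5, KO 1 was the highest KO library and WT 1 the lowest WT library. This holds for 10 of 10 subunits, a pattern chosen after the values were seen, and for 61.5% of all genes tested. The sources used here give no batch or date for these libraries, and the part of any such difference was not tested. The ratio of KO to WT therefore depended on the library number. For Itga3 it was 0.477 between KO 1 and WT 1 and 2.41 between the mean of KO 2 and KO 3 and that of WT 2 and WT 3. For Itgb5 these ratios were 1.26 and 0.578, for Itga1 1.85 and 0.546, and for Itgav 0.485 and 1.05. Itga5, Itga6, Itga7 and Itgb1 had both ratios below 1, and Itgb3 had both above 1. The first ratio of each gene has no replicate.

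**Figure D3:**
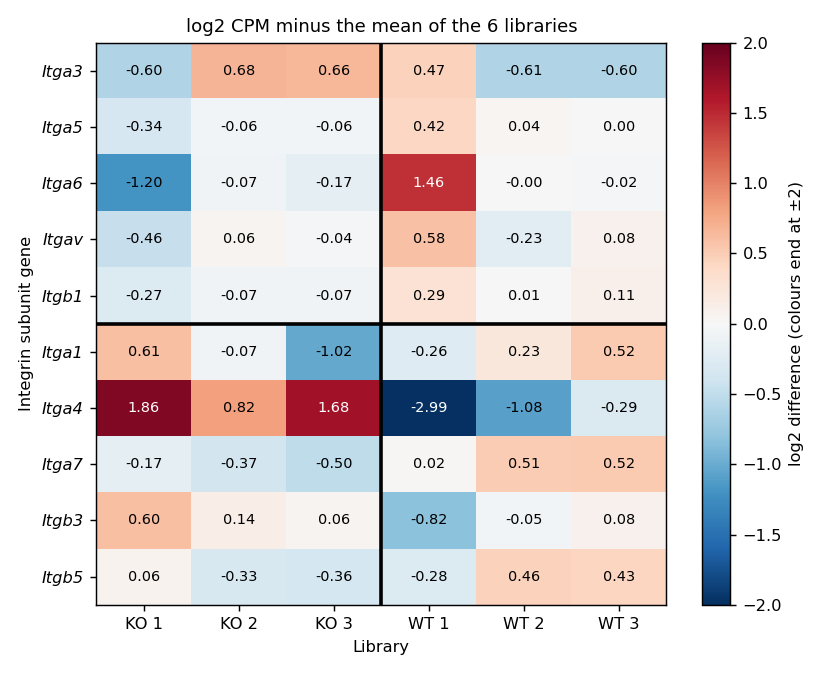
Difference of log2 CPM (prior count 2) from the mean of the 6 libraries, KO libraries left of WT libraries, with the 5 subunits above the line for which KO 1 was the lowest KO and WT 1 the highest WT library. Itga6 was at -1.20 in KO 1 and 1.46 in WT 1, while its other 4 libraries lay between -0.17 and 0.00.

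With both libraries numbered 1 left out, a choice made after seeing the data, 5 of 10 subunits passed the threshold, where 48.0% of all genes tested did. Itga3 and Itga4 rose in KO and Itga7, Itgb1 and Itgb5 fell in this setting. The share lies near that of all genes, and genotype cannot be told apart there from any other difference between KO 2 and KO 3 and WT 2 and WT 3. Itgb1 had a log2 fold change of -0.13 (SE 0.05, edgeR adjusted p = 0.0485), Itga7 of -0.95 (SE 0.10, edgeR adjusted p = 8.66e-06) and Itga4 of 2.17 (SE 0.81, edgeR adjusted p = 0.0438) without these libraries. The median log2 fold change of the 10 subunits was -0.10 in this setting.

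**Figure D4:**
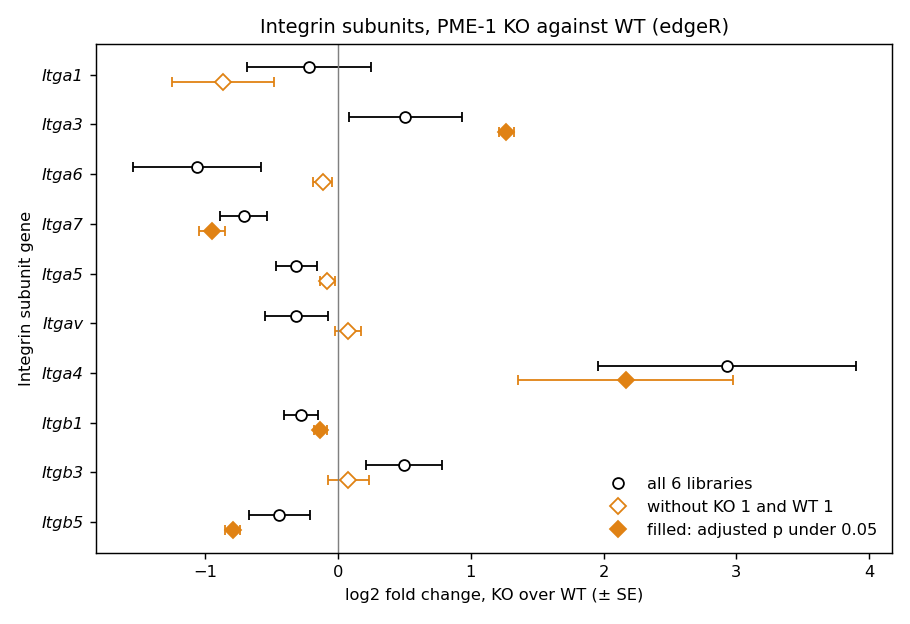
log2 fold change (KO over WT, ± SE) of each subunit from edgeR with all 6 libraries (circles) and without KO 1 and WT 1 (diamonds), filled where the adjusted p was under 0.05. No circle is filled, 5 diamonds are, and the points of Itgav lie on both sides of 0, at -0.31 and 0.08.

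Itga3 and Itgb5 had opposite profiles over the libraries: KO 2, KO 3 and WT 1 were the 3 highest for Itga3 and the 3 lowest for Itgb5. The 250 bases before their starts annotated in RefSeq are shown for that reason, chosen after the values were seen. The sequences are from RefSeq on GRCm38.p6, 5′ to 3′ on the strand of the gene, with matches to the GC box GGGCGG (either strand), a motif bound by Sp1, in capitals. The Itga3 window is chr11:95076715-95076964 on the minus strand, the upstream one of 2 annotated starts, and the Itgb5 window is chr16:33829415-33829664 on the plus strand. In GENCODE M21 the Itga3 gene begins at 95076801, inside this window, so part of the window lies within the gene by that annotation.
Itga3: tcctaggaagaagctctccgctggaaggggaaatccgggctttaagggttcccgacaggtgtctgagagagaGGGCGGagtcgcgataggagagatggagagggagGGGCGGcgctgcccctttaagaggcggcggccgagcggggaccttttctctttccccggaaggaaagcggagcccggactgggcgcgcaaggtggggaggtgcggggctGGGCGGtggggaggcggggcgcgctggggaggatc
Itgb5: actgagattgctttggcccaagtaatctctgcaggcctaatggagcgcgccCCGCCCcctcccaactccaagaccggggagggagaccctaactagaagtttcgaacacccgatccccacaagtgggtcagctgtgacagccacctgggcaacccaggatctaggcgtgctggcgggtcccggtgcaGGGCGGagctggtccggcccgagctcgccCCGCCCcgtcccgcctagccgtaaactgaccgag
Each window held 3 GC boxes. At least 1 was found in 32.7% of 32851 windows of the same length before annotated mouse starts. In the other windows of listed subunits there were 2 GC boxes for Itga5 and 1 each for Itga4, Itgb1 and the downstream Itga3 start. Those of Itga1 and Itgav held 0. Neither printed window held the AP-1 motif TGANTCA (6.75% of windows), the TEAD motif GGAATG (12.6%) or a TATA box TATAAA (12.4%), searched on both strands. The GC content was 67.6% in the Itga3 window and 65.2% in the Itgb5 window. Counts per gene do not show which start was used.

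The positions of the 10 genes, in GENCODE M21 on GRCm38, lie on 7 chromosomes. Itga4, Itga6 and Itgav lie on chromosome 2, at 79255426 to 79333123, 71745616 to 71858416 and 83724397 to 83806916. Itga3 (95044474 to 95076801) and Itgb3 (104608000 to 104670476) lie on chromosome 11. Itga7 lies on chromosome 10 from 128933818 to 128958282, Itgb1 on chromosome 8 from 128685654 to 128733200 and Itgb5 on chromosome 16 from 33829665 to 33949338. Itga1 lies on chromosome 13 from 114953096 to 115101964 and Itga5 on chromosome 15 from 103344286 to 103366763.

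Of 17 other genes of the integrin family, 12 passed the filter and 0 were called in edgeR, where 7.4% of all genes were. At an unadjusted p under 0.05 there were 3, where 22.2% of all genes were. DESeq2 called 3 lower, where it called 940 of 17725 genes lower. With limma-voom 1 was called lower, where 612 of all genes were. Without KO 1 and WT 1, 1 of 12 rose and 6 fell, where 48.0% of all genes were called. Itgb8, whose product with the alpha-V chain activates latent TGF-beta, was at 42.3, 31.6 and 23.8 CPM in KO, against 21.6, 41.3 and 51.5 CPM in WT. Itgb7, known from lymphocytes, was at 6.08, 11.8 and 12.1 CPM in KO, against 17.6, 7.39 and 7.12 CPM in WT. Per length, Itgb7 (3.61 CPM per kb in KO, 3.86 in WT) and Itgb8 (2.95 CPM per kb in KO, 3.45 in WT) averaged above Itgb3. The collagen receptor chain Itga11 was at 1.40, 0.680 and 0.441 CPM in KO, against 1.58, 6.63 and 6.66 CPM in WT (log2 fold change -2.56, SE 0.68, edgeR adjusted p = 0.0765). Itga11 lies on chromosome 9 from 62677826 to 62783982, in a stretch from 55 to 75 Mb. There 39.9% of 178 tested genes were called lower in KO, where 3.86% of all genes were. The bounds of this stretch were not planned with the design, and the share comes from these same data. Itga10, also a collagen receptor chain, was at 2.56, 0.915 and 2.29 CPM in KO, against 2.16, 9.13 and 9.75 CPM in WT (log2 fold change -1.87, SE 0.64, edgeR adjusted p = 0.147). In both Itga10 and Itga11, WT 1 lay nearer to the KO libraries than to WT 2 and WT 3. Itga2b, the platelet chain, averaged 6.05 CPM in KO and 7.50 CPM in WT. Of the other platelet markers listed, Gp9 and Pf4 were at 0 in all libraries. Gp1ba averaged 0.162 CPM in KO and 0.252 CPM in WT. Itgb2, the leukocyte beta chain, averaged 1.45 CPM in KO and 1.06 CPM in WT, and Itgb4 1.60 CPM in KO and 0.768 CPM in WT. The integrin-like gene Itgbl1 averaged 4.55 CPM in KO and 9.57 CPM in WT. Its groups overlapped, at 10.8, 1.41 and 1.47 CPM in KO, against 1.775, 14.6 and 12.3 CPM in WT. Itga9, named here after its values were seen, was at 0.104, 0.282 and 0 CPM in KO, against 1.50, 1.41 and 1.63 CPM in WT (log2 fold change -3.48, SE 0.92, edgeR adjusted p = 0.0745).

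Among 35 tested ligands of integrins 2 rose and 6 fell in KO, where 3.55% of all genes tested rose and 3.86% fell, and the list median was -0.29. Vcam1, the counter-receptor of integrin alpha-4 beta-1, was at 65.0, 59.8 and 64.1 CPM in KO, against 13.4, 16.1 and 19.0 CPM in WT (3.89-fold higher, edgeR adjusted p = 0.00148). Lama5, a laminin chain bound by alpha-3 and alpha-6 integrins, was at 240, 300.1 and 254 CPM in KO, against 107, 65.5 and 79.4 CPM in WT (3.15-fold higher, edgeR adjusted p = 0.00592). Col4a1, of the basement membrane collagen that alpha-1 beta-1 binds, was at 258, 360 and 340 CPM in KO, against 1180, 1070 and 1114 CPM in WT (log2 fold change -1.81, edgeR adjusted p = 0.00183). Col6a3, a chain of beaded-filament collagen VI, was at 257, 247 and 203 CPM in KO, against 748, 781 and 879 CPM in WT (log2 fold change -1.77, edgeR adjusted p = 0.00148). For these 4 genes the groups did not overlap, and each call held when any 1 library was left out. Not all calls in the ligand list did. Leaving out WT 2, WT 3, KO 2 or KO 3 singly left 2 rises and 3 falls each time. Those refits called 332 to 385 genes in all. With the replicate number as a block 0 ligands were called, where 8 of all genes were. Fn1, the fibronectin gene and ligand of alpha-5 beta-1, averaged 4285 CPM in KO cells and 4179 CPM in WT cells (log2 fold change 0.04, edgeR adjusted p = 0.912). Without KO 1 and WT 1, 14 of 34 tested ligands rose and 16 fell, in a setting where 48.0% of all genes were called.

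Inside the cell, integrins bind activators and the adaptors of focal adhesions. Of 15 tested activators and tail-binding proteins, such as talins and kindlins, 1 fell and 0 rose, where 3.86% of all genes fell and 3.55% rose. It was Apbb1ip, an adaptor that links Rap1 to talin, at 22.0 ± 2.75 CPM in KO and 35.3 ± 4.36 CPM in WT (n = 3 each, edgeR adjusted p = 0.0458), and the call was lost when any 1 library was left out, with adjusted p up to 0.173 (without WT 3). Of 32 tested focal adhesion genes 1 rose and 2 fell, against the same 3.55% and 3.86% of all genes. Parvb, the adaptor beta-parvin, was at 16.9, 18.1 and 19.6 CPM in KO, against 61.1, 49.4 and 46.3 CPM in WT (log2 fold change -1.52, edgeR adjusted p = 0.00248). Tgfb1i1, the paxillin relative Hic-5, was at 40.0 ± 1.87 CPM in KO and 72.5 ± 13.3 CPM in WT (n = 3 each, edgeR adjusted p = 0.0204), a call lost without WT 2, WT 3, KO 2 or KO 3 (adjusted p 0.0511 to 0.0994). Tns4, a tensin of low level named because it was the 1 rise, had 48, 29 and 29 counts in KO and 0 counts in each WT library, at least 12.5-fold higher against 3 counts per library, a call lost without WT 3, KO 2 or KO 3 (edgeR adjusted p 0.053 to 0.0824).

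Of 25 tested lateral partners and traffic genes 3 fell and 0 rose, where 3.86% of all genes fell and 3.55% rose. The syndecan genes Sdc1 and Sdc3, co-receptors for the matrix, were at 194 ± 26.9 CPM and 69.0 ± 8.44 CPM in KO and at 374 ± 78.3 CPM and 121 ± 2.53 CPM in WT (n = 3 each, edgeR adjusted p = 0.0323 and 0.0104). Rab11a, a GTPase of receptor recycling that lies on chromosome 9 at 64715299, inside the stretch given above, was at 81.0 ± 7.08 CPM in KO and 162 ± 21.7 CPM in WT (n = 3 each, edgeR adjusted p = 0.0085). The Sdc1 call was also lost with upper-quartile factors (0.0551) and with library totals alone (0.0679). Those of Sdc1 and Sdc3 were lost without WT 2, WT 3, KO 2 or KO 3 (edgeR adjusted p 0.054 to 0.145) and that of Rab11a without KO 2 or KO 3 (0.0563 and 0.0585). The list medians were -0.04 for the activators, -0.20 for focal adhesion genes and -0.21 for lateral partners, against 0.01 for all genes tested. Without KO 1 and WT 1, 6 rose and 5 fell among activators, 6 and 15 among focal adhesion genes and 6 and 13 among lateral partners, where 48.0% of all genes were called.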

How the data were processed

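The authors deposited raw read counts per mouse gene symbol for 6 libraries from a directional kit, per the labels' protocols. The submitters' processing notes name Trim Galore 0.6.6 and HISAT2 2.2.1 and a human build, and the authors' coordinates were left aside. What program, strand setting and gene models were used for counting is not stated there. The KO and WT counts were compared in edgeR 4.0.16 (R 4.3.3, filterByExpr, TMM factors, robust quasi-likelihood fit) over 15223 genes with Benjamini-Hochberg adjustment, 0.05 as threshold, and tested on simulated data. SE is the log2 fold change over the square root of F. All adjusted p-values come from edgeR unless DESeq2 1.42.0 is named. Exon lengths and positions come from GENCODE M21, whose transcripts may differ from those counted. blastn 2.17.0 (at least 90% identity over 200 bases) found shared stretches for Itga1, Itga4, Itga6, Itgav and Itgb5, whose reads are uncertain to that extent. Groups follow the sample titles. The members and lists were chosen with earlier results of these data known. All 10 subunits are named, other integrins from 1 CPM on average, and up to 4 called genes per list by fold change at that minimum. Nearest-pattern genes were to be named for called subunits, of which there were 0. Floors cover counting error only. Promoters of Itga6, Itga7 and Itgb3 are not used here.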

Additional observations from a re-analysis of the deposited data

How the results depend on the processing

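The count of 1127 genes (540 higher, 587 lower in KO) was 1957 (1017 and 940) with DESeq2 and 7408 (3605 and 3803) without both libraries numbered 1. With the replicate number as a block it was 8 (3 and 5). The sources do not say that the numbers mark a shared culture or day, so the numbers were not taken as pairs in the main fit. The deviations of same-numbered KO and WT libraries from their group means had negative correlations over genes (-0.512, -0.307 and -0.223). These do not show whether same-numbered libraries were handled together. Why the libraries numbered 1 deviate in opposite directions was not tested. Leaving out 1 library gave 332 to 1216 genes (170 to 556 higher, 162 to 660 lower). Of the 10 integrin subunits 2 were called with DESeq2 (1 higher, 1 lower) and 5 without both libraries numbered 1 (2 higher, 3 lower). Between 0 and 1 were called with 1 library left out (0 to 0 higher, 0 to 1 lower), Itga7 without WT 1. In the replicate block fit 0 were called. The cause was not tested. Of 138 refits of single subunits planned with the design, 134 kept the direction and side of the threshold, 3 passed it (Itga4 and Itga7 with DESeq2, Itga7 without WT 1) and 1 reversed, Itga1, which ranged from -0.68 to 0.13 with 1 library left out. Itgav was 0.075 without both libraries numbered 1. Itga4 and Itga1 had no value at a mean of at least 5 CPM. Other scaling factors moved the median of all genes by 0.012 to 0.068 on the log2 scale. Depth limits Itga4 (0 to 54 counts per library) and Itga1 (40 to 154).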
